A study of Mus musculus with 12 samples.

Results

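The comparison described here is the addition of cytochalasin D to mouse bone marrow-derived mesenchymal stem cells that also received CK666, an inhibitor of the Arp2/3 complex. It sets 3 libraries from cells that received both compounds for 24 h, the combination, against 3 libraries from cells that received CK666 without cytochalasin D for 24 h. These are 6 of the 12 libraries of the series, taken by the treatment and replicate number in the labels, and the comparison runs over all genes. Such cells are stromal cells that stick to plastic and can turn into bone, fat or cartilage cells. All of them were plated at 10000 cells per square centimetre in medium with 10% serum 1 day before treatment. The other 6 libraries, 3 from untreated cells and 3 from cells with cytochalasin D and no CK666, supply the spread of the fit and a second comparison that shares no library with the first. The sources used here do not give the concentrations of the compounds, the order in which they were added, or the strain and age of the mice. Nothing states that replicates came from different animals or cultures, so every p-value reflects only how much these libraries vary, and that variation may be technical.

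Actin filaments grow mainly at their barbed ends. The Arp2/3 complex starts new filaments as branches on existing ones, and CK666 holds it in an inactive state. Cytochalasin D, a fungal compound, caps barbed ends and also binds actin monomers, so it acts on branched and unbranched filaments alike. Actin monomers hold back the coactivators MRTF-A and MRTF-B of the transcription factor SRF, which binds the CArG box of contractile and cytoskeletal genes, and filament tension also bears on the coactivators YAP and TAZ. Cells need actin filaments to spread, to pass from G1 into S phase on a substrate and to cleave at the end of mitosis.

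Gene groups that changed in this comparison have known promoter elements, and a few promoters of their members are shown so that the elements can be seen. The windows are 150 bases upstream of the start in RefSeq's table for GRCm38.p6, written 5' to 3' on the strand of the gene. They were chosen because they hold the element. Late cell cycle genes often carry a CHR, searched as TTTGAA or TTCGAA, near CCAAT boxes. Capitals mark both elements, on either strand, in Cdc20 (chr4:118437344-118437493, minus strand), Cdk1 (chr10:69352913-69353062, minus strand) and Kif11 (chr19:37376232-37376381, plus strand).
Cdc20: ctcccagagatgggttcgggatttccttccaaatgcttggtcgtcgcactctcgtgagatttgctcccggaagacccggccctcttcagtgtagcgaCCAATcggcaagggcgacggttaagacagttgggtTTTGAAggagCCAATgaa
Cdk1: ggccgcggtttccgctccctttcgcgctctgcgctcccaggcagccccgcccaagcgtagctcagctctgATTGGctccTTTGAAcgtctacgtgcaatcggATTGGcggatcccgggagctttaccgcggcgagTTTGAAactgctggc
Kif11: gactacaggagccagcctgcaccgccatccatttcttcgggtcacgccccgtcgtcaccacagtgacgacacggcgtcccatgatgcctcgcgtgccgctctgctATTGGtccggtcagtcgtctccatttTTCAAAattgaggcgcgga
In 2 replication genes, Mcm5 (chr8:75109359-75109508, plus strand) and Mcm6 (chr1:128359706-128359855, minus strand), capitals mark an E2F element, searched on both strands as TTTCCCGC, TTTCGCGC, TTTGCCGC or TTTGGCGC. E2F factors drive genes of S phase.
Mcm5: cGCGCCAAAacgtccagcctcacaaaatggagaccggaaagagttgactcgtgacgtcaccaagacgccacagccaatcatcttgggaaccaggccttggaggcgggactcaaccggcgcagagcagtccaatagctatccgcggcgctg
Mcm6: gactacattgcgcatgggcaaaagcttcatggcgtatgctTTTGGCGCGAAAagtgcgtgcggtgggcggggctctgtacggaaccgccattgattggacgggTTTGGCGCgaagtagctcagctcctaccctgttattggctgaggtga
In Acta1 (chr8:123894776-123894925, minus strand) capitals mark the CArG box, CCAAATATGG, which lies 73 to 64 bases before the start.
Acta1: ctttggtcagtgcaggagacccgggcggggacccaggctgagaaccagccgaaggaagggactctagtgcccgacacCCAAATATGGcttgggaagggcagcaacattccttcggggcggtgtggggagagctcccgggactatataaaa
In the stress response genes Slc7a11 (chr3:50443614-50443763, minus strand) and Atf3 (chr1:191183334-191183483, minus strand) capitals mark TGATGNAA, the letters of the element that ATF4 binds together with C/EBP factors, on either strand.
Slc7a11: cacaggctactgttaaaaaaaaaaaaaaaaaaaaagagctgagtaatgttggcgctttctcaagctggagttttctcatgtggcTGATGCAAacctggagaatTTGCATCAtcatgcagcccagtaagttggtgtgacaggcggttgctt
Atf3: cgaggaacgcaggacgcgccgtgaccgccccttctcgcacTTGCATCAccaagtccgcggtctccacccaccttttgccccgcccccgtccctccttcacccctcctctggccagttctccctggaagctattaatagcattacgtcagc
Over the whole windows of the table, 250 bases before to 50 after the start, the CHR was found in 16 of 21 matched mitosis genes (76.2%) and in 21.7% of all genes. CCAAT was found in 76.2% of those mitosis genes and in 41.1% of all genes, but also in 63.2% of matched replication genes, 63.6% of contractile genes, 53.3% of SRF and MRTF targets and 85% of stress response genes. An E2F element was found in 8 of 19 matched replication genes (42.1%) and in 2.6% of all genes, and a CArG box in 7 of 15 matched SRF and MRTF targets (46.7%), in 1 of 11 matched contractile genes (9.09%) and in 1.81% of all genes. TGATGNAA was found in 4 of 20 matched genes of the stress responses (20%) and in 4.51% of all genes. A match describes letters in the window and is neither a shown binding site nor a cause.

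The 6 libraries held between 49234738 and 69269716 counts. Levels below are counts scaled by TMM to a common library total (CPM), SE is the standard error of a log2 fold change, and each adjusted p is that of a quasi-likelihood test in edgeR, with false discovery control by Benjamini and Hochberg across the 13534 genes tested. A gene was called, and is said to have risen or fallen, at an adjusted p under 0.05. CK666 replicate 3 stood apart: its median absolute log2 difference from replicates 1 and 2 of its group was 0.289 and 0.276, against 0.126 between those. Its differences went with gene length (r = 0.377 and 0.465 across genes, which are not independent replicates). Many of the counts that it moved are given with and without it, but not those of every list. Marrow stromal markers summed to 6834 to 8931 CPM with CK666 and 7698 to 7863 CPM with both. The 12 myeloid markers found, 3 of them at 0 in all 6 libraries, summed to at most 12 CPM, 10 endothelial markers to at most 0.481 CPM and 7 epithelial markers to at most 0.333 CPM, with overlapping ranges in the groups. The 8 erythroid and lymphoid markers, 4 of them at 0 in all 6 libraries, summed to 0.232 to 0.282 CPM with CK666 and 0.106 to 0.222 CPM with both, and 10 skeletal muscle and neural markers to 5.82 to 8.78 CPM and 5.70 to 7.38 CPM. Of the 16 stromal markers, 12 averaged at least 1 CPM over the 6 libraries, and on average Cxcl12 alone made up most of the stromal sum. Thy1 was close to 0 in the stromal list.

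Cytochalasin D raised 599 genes (4.43% of those tested) and lowered 971 (7.17%) in cells with CK666, together 11.6%. Of these, 96 rose and 225 fell by at least 2-fold. Counts in the gene lists below are to be read against the 4.43% raised and 7.17% lowered among all tested genes. The median log2 fold change of all tested genes was 0.0039. Without CK666 replicate 3, 979 genes rose (7.13%) and 1058 fell (7.71%), together 14.8%, so that 48.1% and not 38.2% of the calls were higher, and 538 of the 599 and 786 of the 971 kept their call. A fit of only the 2 groups, with fewer degrees of freedom, called 459, and of the called genes named below it did not call Actg2, Actr2, Alpl, Aqp7, Arpc1b, Atoh8, C1ra, Cdkn1a, Col1a1, Csrp1, Cyp51, Cyr61, Ddit3, Egr3, Enpp1, Fabp4, Flna, Lpl, Srf, Tagln, Timp2, Tubb2a, Tubb6, Wwtr1 and Zyx. In that fit 25 mitosis and 19 replication genes fell, while no SRF and MRTF target, p53 target, osteoblast gene or gene of fatty acid uptake was called, nor any fibrillar matrix, ribosomal, Arp2/3 or focal adhesion gene. It also left 3 contractile genes and 1 cholesterol gene lower and 2 stress response genes higher. Replicates of the untreated and cytochalasin D groups differed by a median absolute log2 of 0.0771 to 0.108. Within the 2 compared groups this was 0.0893 to 0.289. The spread shared by all 12 libraries, and with it the p-values, may therefore be too small for this comparison, which was not tested. DESeq2 called 8 genes of fatty acid uptake, 6 BMP ligands and antagonists and 5 YAP and TAZ targets higher, and 8 cholesterol, 8 glycolysis, 11 ribosomal and 5 fibrillar matrix genes lower. The log2 fold change went weakly with gene length (r = 0.179 across genes). Its median was -0.0992 over the shortest of 3 equal classes of genes by length and 0.109 over the longest, and without CK666 replicate 3 these were 0.0052 and 0.036.

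Genes of cell division fell together. All 25 mitosis genes tested fell, with a median log2 fold change of -1.57, and this count was 25 under every setting tried. Of 24 DNA replication genes, 21 fell and none rose, with a median of -0.78 (21 to 23 when 1 library was left out). In each of these 49 genes the 3 libraries with both compounds lay below the 3 with CK666, while 27.6% of all tested genes had groups that did not overlap in either direction. In bulk samples, fewer cells of a type and less RNA per cell cannot be told apart. Birc5, which encodes survivin, a subunit of the chromosomal passenger complex (chromosome 11, 117849237 to 117855743), was at 20.8, 18.5 and 21.1 CPM with CK666 and at 5.73, 4.17 and 5.01 CPM with both. Every library with both compounds was well under every CK666 library (log2 -2.02, SE 0.17, adjusted p = 8.19e-06). Ccna2, the cyclin of S and G2 phase (chromosome 3, 36564865 to 36571996), was at 40.6, 38.5 and 34.1 CPM and then at 10.5, 10.0 and 9.39 CPM, 3.78-fold lower. Plk1, the polo-like kinase of mitotic entry and spindle assembly (chromosome 7, 122159437 to 122169875), was at 20.4, 20.9 and 19.4 CPM and then at 6.73, 5.33 and 5.05 CPM. In both genes the drop exceeded the spread within groups several times over. The kinetochore gene Nuf2 was 3.64-fold lower and the kinase gene Aurka, which acts at spindle poles, 2.43-fold lower. Of the genes whose promoters are shown, Cdc20, an activator of the anaphase-promoting complex, was 3.02-fold lower and Kif11, the motor that pushes spindle poles apart, 3.32-fold lower. Cdk1, the kinase that drives mitosis, was at 50.1, 45.6 and 52.3 CPM and then at 26.5, 24.5 and 23.1 CPM, a smaller change of 1.99-fold without overlap.

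The replication genes fell less far. Mcm5, a subunit of the MCM helicase that unwinds DNA (chromosome 8, 75109528 to 75128439), was at 40.1, 35.7 and 39.8 CPM with CK666 and at 14.6, 13.9 and 12.5 CPM with both. The groups were far apart (log2 -1.50, SE 0.11, adjusted p = 5.38e-06). Its partners Mcm6 and Mcm3 were 2.14-fold and 2.26-fold lower, and Cdc6, which loads the helicase onto origins, 2.95-fold lower. Among the 12 most lowered genes by the rule for named genes was Mxd3, a MAX-binding repressor of the MYC network, at 6.70, 6.73 and 6.23 CPM and then at 1.18, 1.55 and 1.55 CPM. That is 4.56-fold lower, and Cenpm, a centromere protein gene, was 3.93-fold lower. None of these calls changed under any setting tried.

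**Figure D1:**
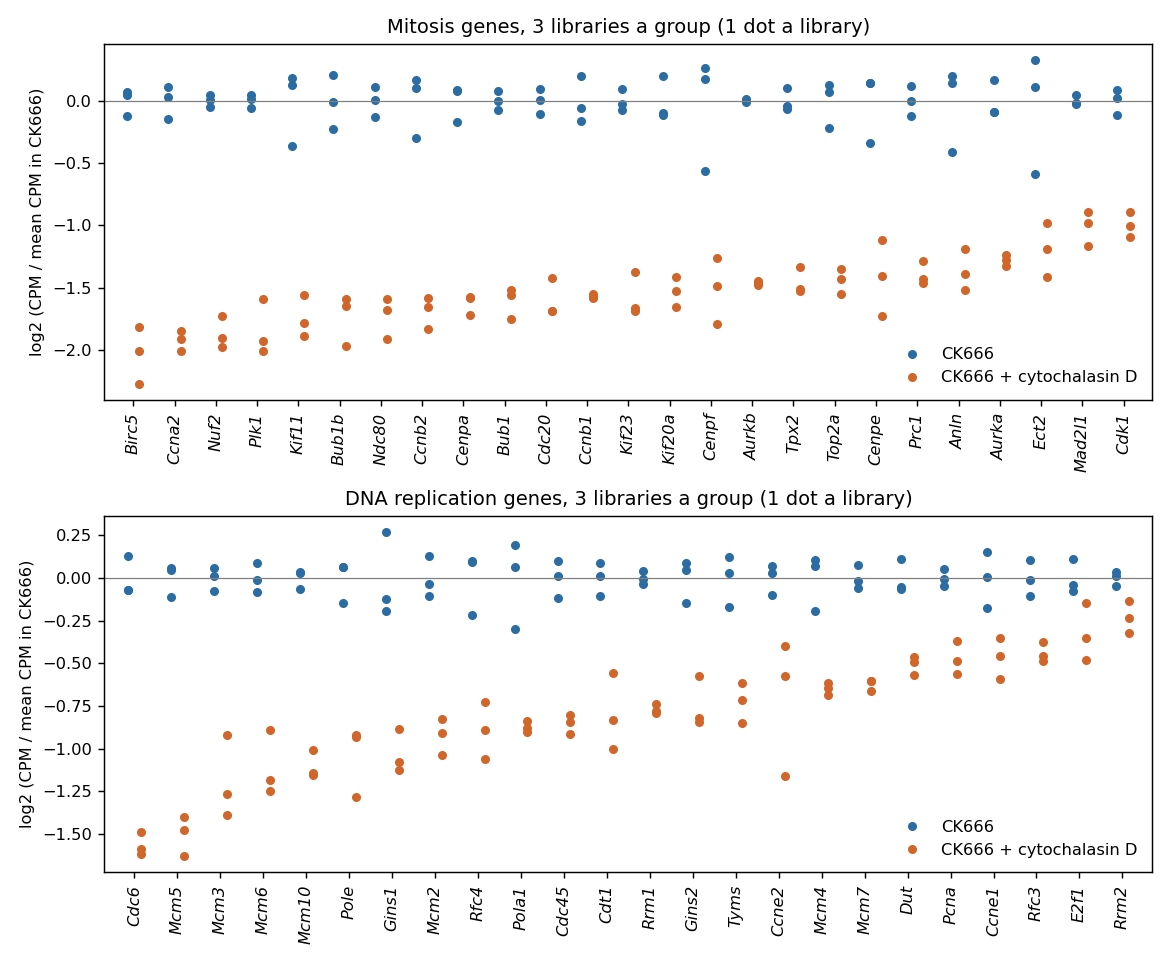
Level of each mitosis gene (25) and each DNA replication gene (24) in the 6 libraries, as log2 CPM relative to its mean over the 3 CK666 libraries, with 1 dot a library. All 49 genes lie lower in the 3 libraries with both compounds, and the mitosis genes lie lower than the replication genes, with median log2 fold changes of -1.57 and -0.78.

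Genes that act before S phase moved both ways. Of 15 G1 cyclin and CDK inhibitor genes, 2 rose and 4 fell (1 rose without CK666 replicate 1 or combination replicate 2 or 3). Cdkn1a, the p53-induced inhibitor p21 (chromosome 17, 29090986 to 29100722), rose 1.42-fold, from 268, 332 and 356 CPM to 400, 493 and 462 CPM. The inhibitors Cdkn1b, p27, and Cdkn2c, p18, fell 1.37-fold and 1.44-fold. Cdkn1b was at 59.7, 53.3 and 57.3 CPM with CK666 and at a narrow 41.6, 40.9 and 42.2 CPM with both. Of 18 p53 targets, 5 rose and none fell, and 8 rose and 1 fell without CK666 replicate 3 (2 rose without combination replicate 3, and 3 without combination replicate 2 or CK666 replicate 1). Of 12 nuclear lamina and LINC complex genes, 1 rose and 4 fell. Without combination replicate 2 or 3, 2 fell and none rose, without CK666 replicate 1 none rose, and without CK666 replicate 2, 2 rose and 6 fell. Lmnb1, lamin B1 (chromosome 18, 56707813 to 56753424), was at 40.7, 40.4 and 44.1 CPM and then at 15.8, 14.4 and 15.9 CPM, 2.71-fold lower without overlap. Tmpo, a lamina-associated protein gene, was 1.72-fold lower.

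Contractile and SRF target genes fell in part. Of 14 smooth muscle contractile genes, 6 fell and none rose, with a median log2 fold change of -0.42 (-0.27 without CK666 replicate 3). Of 16 SRF and MRTF targets, 5 fell and 1 rose, with a median of -0.21, and 2 fell without combination replicate 2 or 3. The alpha skeletal actin gene Acta1 (chromosome 8, 123891767 to 123894736), whose CArG box is shown, was at 1.06, 2.01 and 2.47 CPM with CK666 and at 0.222, 0.254 and 0.459 CPM with both. It fell 5.99-fold from a low level. The smooth muscle actin gene Acta2 (chromosome 19, 34241091 to 34255336) was at 595, 670 and 837 CPM and then at 419, 351 and 330 CPM. Its groups did not overlap, though the CK666 libraries were spread (log2 -0.93, SE 0.11, adjusted p = 0.000201). Lmod1, an actin nucleator of muscle, was 2.07-fold lower. The smooth muscle genes Actg2 and Tagln were 1.55-fold and 1.49-fold lower. The call of Tagln was lost without combination replicate 2 (adjusted p = 0.0611) or 3 (adjusted p = 0.101), and that of Actg2 without combination replicate 3 (adjusted p = 0.0803). Reads of near-identical actin genes may have been split between them.

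Among the SRF targets with adhesion roles, Csrp1, a LIM protein of actin bundles, and Zyx, zyxin of focal adhesions, fell 1.34-fold and 1.47-fold. Flna, filamin A, which crosslinks actin filaments (chromosome X, 74223461 to 74246534), rose. It was at 1538, 1768 and 1386 CPM with CK666 and at 2187, 2005 and 1971 CPM with both, 1.31-fold higher, a call lost under the length correction (adjusted p = 0.109). Srf itself was 1.36-fold lower at an adjusted p of 0.0479, which was lost without any 1 library other than CK666 replicate 1, the smallest of those adjusted p being 0.0948, and also with RLE size factors or with Rn45s removed. Not called were Cnn1, calponin (log2 -0.08, SE 0.20), Fhl1, a LIM protein gene (log2 -0.28, SE 0.11), and Actb, beta actin (log2 -0.14, SE 0.08). Vcl, vinculin, was not called either (log2 -0.17, SE 0.13), but was without CK666 replicate 3 (adjusted p = 0.0235), and Fhl1 was called without CK666 replicate 1 (adjusted p = 0.0257).

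Single genes that answer to serum and tension fell far, but their lists did not fall together. Of 15 immediate early genes, 1 rose and 3 fell (6 fell without CK666 replicate 1, and 2 without combination replicate 2 or 3). The median log2 fold change of the 15 was -0.048. Egr1, a zinc finger factor induced by growth signals (chromosome 18, 34861207 to 34864956), was at 237, 475 and 430 CPM with CK666 and at 127, 104 and 109 CPM with both. CK666 replicate 1 was low in its group yet above every library with both compounds (log2 -1.75, SE 0.35, adjusted p = 0.0067). Egr3, of the same family, fell 2.16-fold. Arc, an immediate early gene best known from neurons (chromosome 15, 74669083 to 74672570), was at 4.81, 12 and 14.0 CPM and then at 2.0, 2.40 and 1.87 CPM, 4.91-fold lower. The exception was Atf3, a stress-induced repressor, which rose from 2.36, 4.10 and 3.66 CPM to 11.9, 9.14 and 8.96 CPM. Its groups were well apart (log2 1.56, SE 0.22, adjusted p = 0.000494).

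Of 20 YAP and TAZ targets, 3 rose and 3 fell, with a median log2 fold change of 0.10. These counts rested on single libraries: 7 rose without CK666 replicate 2, 1 without CK666 replicate 1 and none without combination replicate 2 or 3, and 6 fell without combination replicate 1. Ctgf, a matricellular protein gene (chromosome 10, 24595442 to 24598682), was at 171, 323 and 312 CPM and then at 118, 98.9 and 95.7 CPM. All libraries with both compounds were lower, and CK666 replicate 1 was nearest to them (log2 -1.37, SE 0.19, adjusted p = 0.000439). Its relative Cyr61 was 2.0-fold lower, and that call was lost without combination replicate 2 (adjusted p = 0.0651) or 3 (adjusted p = 0.106). F3, tissue factor, which starts blood clotting, fell 1.63-fold. Wwtr1, the gene of TAZ, rose 1.37-fold, and this call was lost without combination replicate 2 (adjusted p = 0.0548) or 3 (adjusted p = 0.0507).

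In fat cell genes, no transcription factor of the list was called, a few carriers and enzymes rose, and a few other genes fell. Of 11 lipid droplet genes, 1 fell and none rose, and of 14 fatty acid and triglyceride synthesis genes, 2 fell and none rose. With 1 library left out, up to 3 rose and up to 2 fell in each of these 2 lists. Of 14 adipogenic transcription factors none was called in either direction, with a median log2 fold change of 0.06 (1 rose without CK666 replicate 3). At an unadjusted p under 0.05 edgeR's test gave 2, against 3916 of all 13534 tested genes, and DESeq2 called none. Pparg, the receptor that drives fat cell formation (chromosome 6, 115361221 to 115490401), was at 239, 248 and 282 CPM with CK666 and at 251, 282 and 275 CPM with both. The groups overlapped (log2 0.07, SE 0.08, adjusted p = 0.562). Cebpa, its partner, was likewise not called (log2 0.05, SE 0.09). Plin1, which encodes a lipid droplet coat protein (chromosome 7, 79721164 to 79732776), was at 315, 502 and 554 CPM and then at 524, 738 and 673 CPM. CK666 replicate 3 reached into the range of the combination, and the gene was not called (log2 0.50, SE 0.17, adjusted p = 0.083), but it was without that library (log2 0.67, adjusted p = 0.0175) or without combination replicate 1 (adjusted p = 0.0423). Adipoq, the hormone adiponectin, was at 445, 601 and 765 CPM and then at 654, 940 and 915 CPM, with the same overlap (adjusted p = 0.0876, 0.00659 without CK666 replicate 3 and 0.0296 without combination replicate 1).

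Of 12 genes of fatty acid uptake and lipolysis, 3 rose and none fell, with a median of 0.36 (4.43% of all tested genes rose). This count was 8 without CK666 replicate 3, 7 without combination replicate 1, and 1 without combination replicate 2 or 3. Fabp4, a fatty acid carrier (chromosome 3, 10204343 to 10208576), rose from 285, 349 and 509 CPM to 539, 774 and 748 CPM. Its lowest library with both was just above the highest with CK666 (log2 0.85, SE 0.18, adjusted p = 0.00847). Aqp7, a glycerol channel, rose 1.31-fold, and its call was lost without combination replicate 2 (adjusted p = 0.0635) or 3 (adjusted p = 0.0551). Lpl, lipoprotein lipase, was 1.26-fold higher at an adjusted p of 0.0472 that 4 of the 6 libraries left out in turn ended, namely CK666 replicates 1 and 2 and combination replicates 2 and 3 (adjusted p between 0.072 and 0.177). Halved counts and the length correction ended it too. Cd36, a fatty acid transporter (log2 0.55, SE 0.17, adjusted p = 0.0547), and Lipe, hormone-sensitive lipase (log2 0.57, SE 0.21, adjusted p = 0.0903), were not called, but were without CK666 replicate 3 (adjusted p = 0.0447 and 0.0172). Cd36 was also called without combination replicate 1 (adjusted p = 0.00599) or CK666 replicate 2 (adjusted p = 0.025). DESeq2 called Plin1, Adipoq, Cd36 and Lipe higher.

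Among secreted products of fat cells, adipsin rose. Cfd, which encodes the complement protease adipsin (chromosome 10, 79890853 to 79892656), was at 8.67, 17.8 and 22.4 CPM with CK666 and at 40.3, 59.4 and 54.8 CPM with both. The groups did not overlap in spite of a wide CK666 range (log2 1.66, SE 0.26, adjusted p = 0.00114), and the change was larger without CK666 replicate 3 (log2 1.97). It was the 1 called gene among 6 adipokines tested, and 2 were called without CK666 replicate 3 or combination replicate 1.

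**Figure D2:**
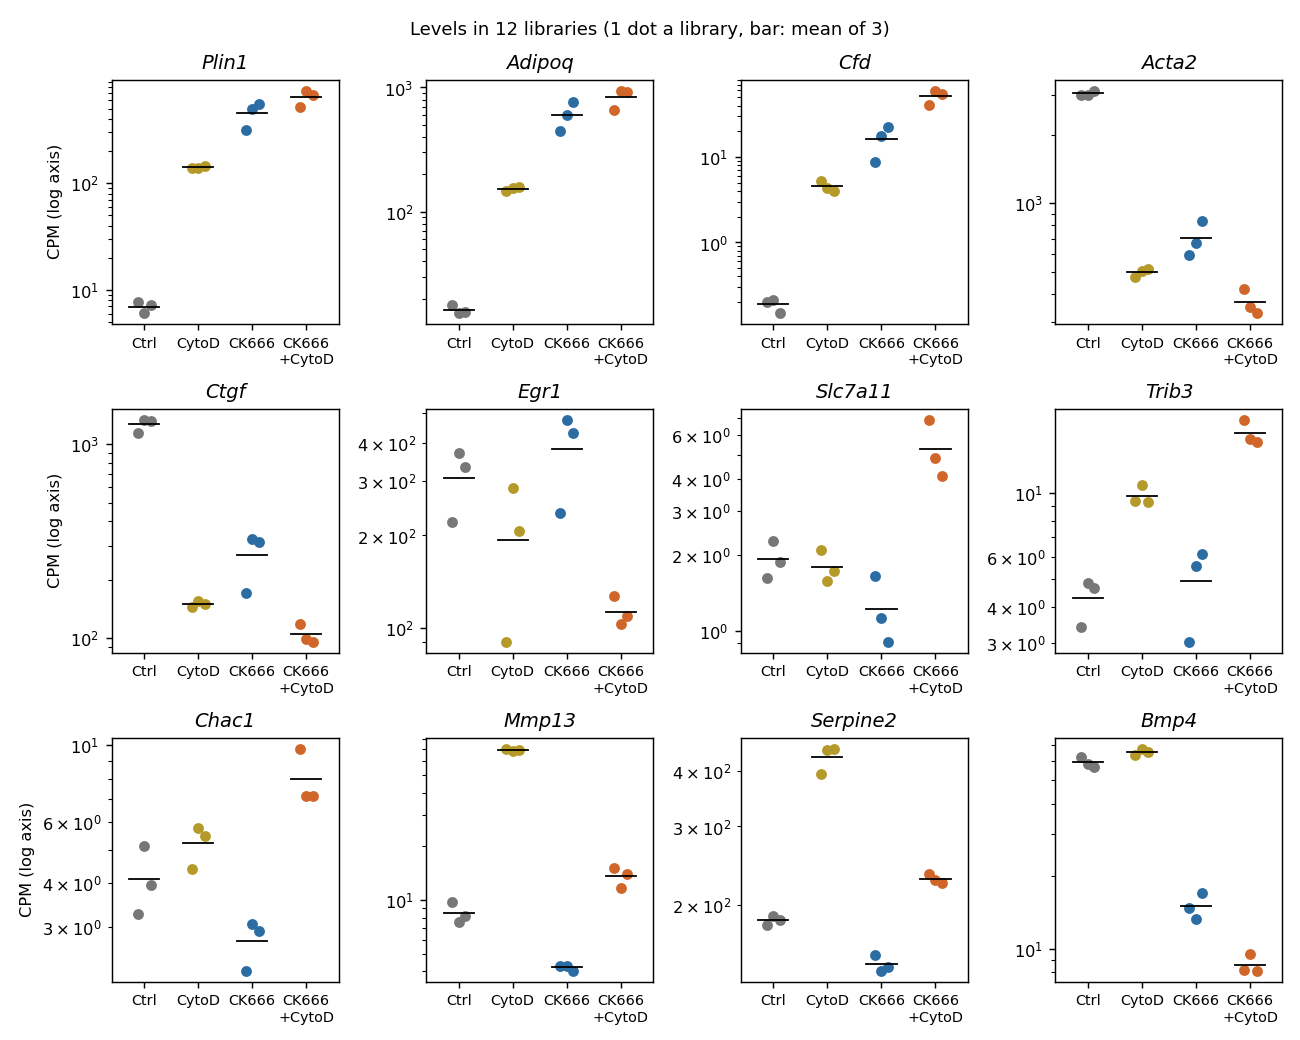
CPM on a log axis of 12 genes in all 12 libraries, 3 in each of the groups Ctrl, CytoD, CK666 and both, with a bar for the group mean. Plin1 and Adipoq are high in both groups with CK666, Acta2 is lower with both compounds than with CK666, and Slc7a11 is high in the combination, at 4.13 to 6.88 CPM against at most 1.65 CPM with CK666.

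Several genes of the amino acid and unfolded protein stress responses rose. Of 20 such genes, 6 rose and 1 fell, with a median log2 fold change of 0.13. Without CK666 replicate 3, 9 rose, while 3 rose without CK666 replicate 1 or combination replicate 2 or 3. Without CK666 replicate 1 or 2, 2 fell, and none fell without combination replicate 2 or 3. Trib3, a pseudokinase induced by ATF4 and CHOP (chromosome 2, 152337425 to 152344060), rose from 3.03, 5.57 and 6.13 CPM to 17.9, 15.4 and 15.0 CPM. The lowest library with both was far above the highest CK666 library (log2 1.71, SE 0.21, adjusted p = 0.000178). Chac1, an enzyme that breaks down glutathione (chromosome 2, 119351242 to 119354327), rose from 2.25, 3.06 and 2.91 CPM to 9.76, 7.14 and 7.13 CPM. Ddit3, the gene of CHOP, was 1.39-fold higher, a call lost without any 1 library other than CK666 replicate 3 (adjusted p between 0.0766 and 0.111).

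Of 14 NRF2 antioxidant genes, 2 rose and none fell, and 4 rose without CK666 replicate 3 (1 fell without CK666 replicate 2). Slc7a11, the cystine importer that feeds glutathione synthesis (chromosome 3, 50364936 to 50443613), was at 1.65, 1.12 and 0.908 CPM with CK666 and at 6.88, 4.85 and 4.13 CPM with both. The groups were far apart at a low level (log2 2.11, SE 0.25, adjusted p = 0.000138). Gclm, a subunit of the enzyme that makes the glutathione precursor, rose 1.49-fold. The Trib3, Chac1, Slc7a11 and Gclm calls held under every setting tried.

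Matrix enzymes and bone-related signals changed gene by gene. The list counts for matrix, BMP and osteoblast genes are to be read against the 11.6% called among all tested genes. Of 18 matrix proteases and inhibitors, 3 rose and 2 fell (5 fell without CK666 replicate 2, 4 without combination replicate 1 and 1 without combination replicate 2 or 3). Mmp13, the collagenase of hypertrophic cartilage and bone remodelling (chromosome 9, 7272514 to 7283333), rose from 4.29, 4.29 and 4.04 CPM to 15.1, 11.7 and 14.0 CPM. The replicates of CK666 were nearly equal and far below (log2 1.69, SE 0.11, adjusted p = 3.81e-06). Serpine2, a protease inhibitor, rose 1.56-fold from 154, 142 and 145 CPM to 235, 227 and 223 CPM, and Timp2, an inhibitor of metalloproteinases, rose 1.3-fold. Plat, the tissue plasminogen activator that Serpine2 can inhibit, fell 1.64-fold. Of 23 fibrillar matrix genes, 3 fell and none rose. None fell without combination replicate 3, 1 without combination replicate 2, 5 without CK666 replicate 3 and 9 with the length correction, and 3 rose without CK666 replicate 2. Col1a1, the main chain of type I collagen, fell 1.32-fold, a call lost without combination replicate 3 (adjusted p = 0.059).

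Among 14 BMP ligands and antagonists, 3 rose and 1 fell, and of 12 BMP targets, 4 rose and none fell (6 without CK666 replicate 3, 2 without CK666 replicate 1 or combination replicate 2 or 3). Bmp4, a BMP ligand (chromosome 14, 46383520 to 46390599), fell from 14.8, 13.2 and 17.0 CPM to 8.13, 9.51 and 8.12 CPM. Its groups did not overlap (adjusted p = 0.000145 in edgeR). Bmp2, another ligand, was 2.43-fold higher at low counts, and its call was lost without combination replicate 1 (adjusted p = 0.0606) or 2 (adjusted p = 0.0634). The target Id2, an inhibitor of helix-loop-helix factors, rose 1.39-fold, and Atoh8, a helix-loop-helix factor, rose 1.36-fold.

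Of 21 osteoblast genes, 3 rose and 2 fell, with a median of 0.12. Runx2, the factor required for bone formation, was at 56.1, 57.4 and 44.4 CPM and then at 64.2, 55.3 and 58.7 CPM, and was not called (adjusted p = 0.232). Alpl, the alkaline phosphatase that frees phosphate for mineral (chromosome 4, 137741732 to 137796377), was at 2.99, 4.53 and 7.20 CPM and then at 7.14, 14.1 and 11.9 CPM. The lowest combination library lay just under the highest CK666 library (log2 1.16, SE 0.34, adjusted p = 0.0422), and leaving out CK666 replicates 1 or 2, or combination replicates 2 or 3, ended the call (adjusted p between 0.0706 and 0.159). Enpp1, which makes the mineral inhibitor pyrophosphate, was 2.01-fold lower, and its call was lost without combination replicate 2 (adjusted p = 0.0567) or 3 (adjusted p = 0.0689). The osteoblast counts fell to 1 higher and none lower without either of these 2 libraries, and 4 fell without combination replicate 1 and 1 without CK666 replicate 1.

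In the cholesterol and ribosomal lists nearly all log2 fold changes lay under 0, and a minority of the genes passed the test. Of 24 genes of cholesterol synthesis and uptake, 23 had a log2 fold change under 0, with a median of -0.30, and 5 fell and none rose. The count was 9 without CK666 replicate 1, 3 and 2 without combination replicates 2 and 1, and 1 without combination replicate 3, and 1 gene rose without CK666 replicate 2. Cyp51, lanosterol demethylase, was at 163, 189 and 173 CPM and then at 121, 136 and 134 CPM, 1.34-fold lower without overlap. Of 22 cytosolic ribosomal protein genes all had a log2 fold change under 0, with a median of -0.32, and 6 fell. These are short genes, and without CK666 replicate 3 the median was -0.13 with 5 lower, while 18 were lower without CK666 replicate 2 and none without combination replicate 2 or 3. With the length correction the median was -0.20 with 9 lower. Of 23 glycolysis and hypoxia genes, 2 rose and 5 fell. Without combination replicates 2 and 3, 2 and 1 fell, and without either, or without CK666 replicate 1, 1 rose. None of 20 nuclear genes of the respiratory chain was called by edgeR or DESeq2, and none had an unadjusted p under 0.05 in edgeR (4 rose without CK666 replicate 3), with a median of -0.0089.

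In the cytoskeletal lists outside the SRF targets single genes were called, in counts to be read against the 11.6% called among all tested genes. Of 10 Arp2/3 subunits, the target of CK666, 1 rose and 1 fell. Actr2 was 1.22-fold higher and Arpc1b 1.24-fold lower, and either call was lost without combination replicate 2 (adjusted p = 0.0656 and 0.133) or 3 (adjusted p = 0.13 and 0.148), that of Actr2 also without combination replicate 1 (adjusted p = 0.116) or CK666 replicate 2 (adjusted p = 0.0501). Of 14 formins and other nucleators, which start unbranched filaments, 2 rose and 1 fell (3 fell without combination replicate 1). Daam1, a formin of the Wnt planar polarity branch (chromosome 12, 71831078 to 71992367), rose from 27.8, 30.5 and 23.2 CPM to 39.4, 40.4 and 40.2 CPM. Diap3, a formin active in cell division, fell from 25.2, 21.6 and 14.6 CPM to 9.87, 7.33 and 7.34 CPM. Both held under every setting tried. Of 12 tubulin genes, 2 rose and 1 fell, and 5 rose without CK666 replicate 3 (1 without replicate 1 of either group). Tubb6 fell 1.51-fold, and Tubb2a was 1.34-fold higher, a call lost without replicate 1 of CK666 (adjusted p = 0.0646) or of the combination (adjusted p = 0.069). Tubb3, the neuronal beta tubulin, rose 3.35-fold from 0.394, 0.426 and 0.595 CPM to 1.77, 1.61 and 1.41 CPM. Of 20 focal adhesion adaptors, 1 rose and 1 fell. Without CK666 replicate 3, 3 fell, without replicate 1 of either group 2 fell, and without combination replicate 2 or 3 none rose. Itga11, a collagen-binding integrin chain (log2 -0.15, SE 0.09), and Thbs1, thrombospondin (log2 0.45, SE 0.16), were not called, and Thbs1 was called by DESeq2 and without CK666 replicate 2 (adjusted p = 0.00229).

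The most raised genes had low levels with CK666. Ism1, a secreted isthmin (chromosome 2, 139678178 to 139758581), rose from 5.75, 7.70 and 6.07 CPM to 21.5, 30.1 and 25.8 CPM. Its groups were far apart (log2 1.99, SE 0.16, adjusted p = 6.24e-06). Zbtb16, a zinc finger repressor that glucocorticoids induce (chromosome 9, 48654297 to 48835945), was 5.24-fold higher, from 0.473, 1.12 and 0.657 CPM to 2.37, 4.46 and 4.94 CPM. Tshr, the thyrotropin receptor, rose 4.91-fold, from 0.906, 2.82 and 2.13 CPM to 4.62, 13.1 and 11.1 CPM. In both genes replicate 1 was the lowest of each group, and the groups did not overlap. Tnn, tenascin N of bone matrix, rose 3.43-fold, and Sptlc3, a subunit of the first enzyme of sphingolipid synthesis, 3.77-fold. The carboxylesterase gene Ces2e and the dipeptidase gene Cndp1 were 5.85-fold and 5.95-fold higher from levels of at most 0.563 and 0.387 CPM. These calls held under every setting tried.

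Without CK666, cytochalasin D gave more calls. In cells with cytochalasin D against untreated cells, 2580 genes rose (19.1%) and 2556 fell (18.9%), together 37.9% of the 13534. Of the 599 genes raised with CK666, 362 (60.4%, or 14.0% of those raised without it) also rose without it, and of the 971 lowered, 617 (63.5%, or 24.1%) also fell. Only 27 and 39 were called in opposite directions. Across genes the 2 log2 fold changes correlated at r = 0.438, a description over genes, which are not independent. The difference of the 2 changes, the interaction, was called in 1935 genes (14.3%), above 0 in 897 (6.63%) and below 0 in 1038 (7.67%). Of those 1935, 85.9% had the smaller absolute change in cells with CK666, against 62.8% of all tested genes. The median absolute log2 fold change of all tested genes was 0.176 with CK666 and 0.259 without it. An interaction call selects genes whose 2 changes differ, so these shares are a description and not a separate test.

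**Figure D3:**
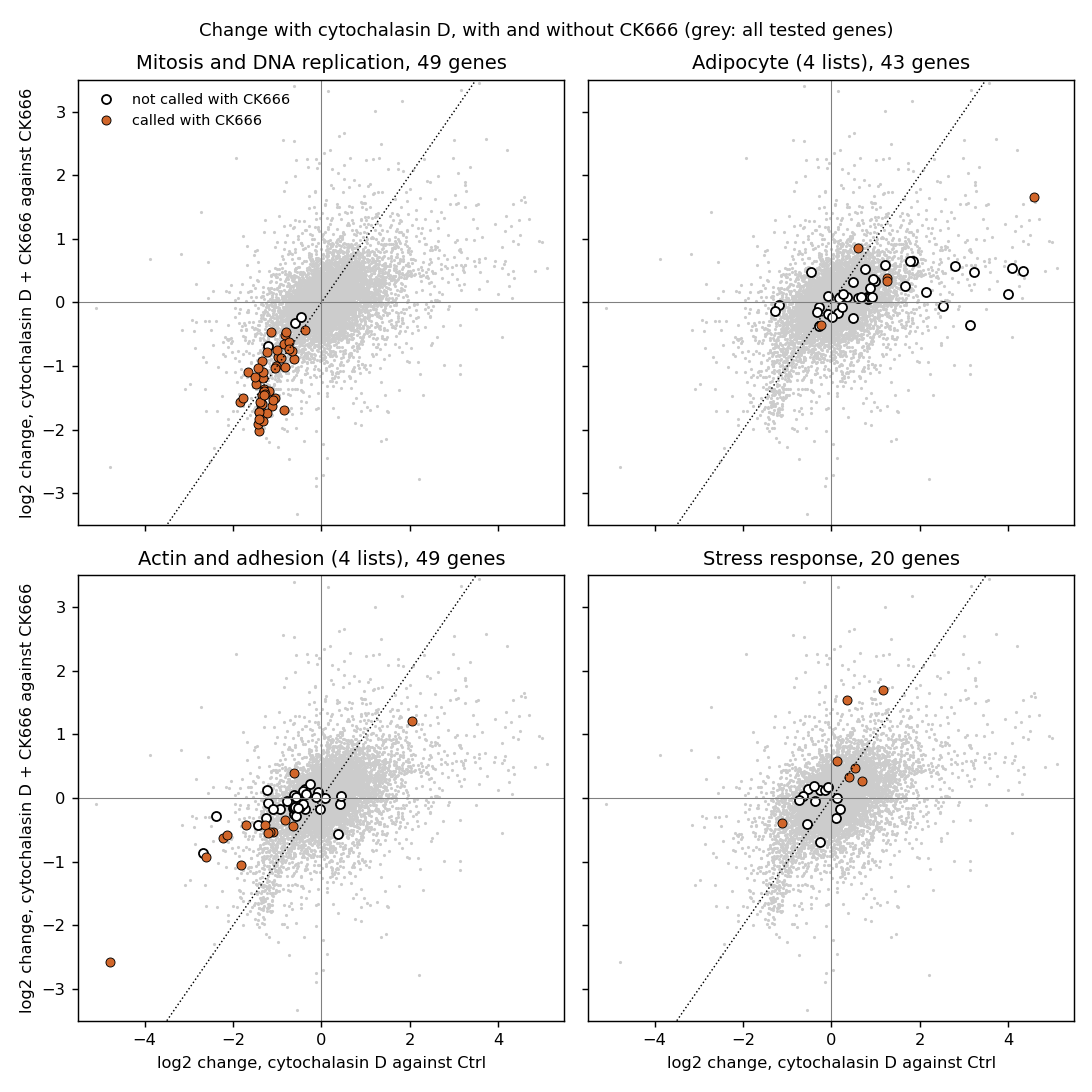
Log2 fold change with cytochalasin D in untreated cells (x) against that in cells with CK666 (y), with tested genes in grey (28 lie outside the axes) and a dotted line of equality. The panels mark 49 mitosis and replication genes, 43 adipocyte genes, 49 actin and adhesion genes and 20 stress response genes, filled where called with CK666. The first set spreads along the line, while most adipocyte, actin and adhesion genes lie closer to 0 on the y axis than on the x axis.

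The division genes fell with and without CK666. All 25 mitosis genes and all 24 replication genes fell without CK666 too, with medians of -1.31 and -1.0, against -1.57 and -0.78 with it. The interaction was called in 2 of the 25, both falling further with CK666, and in 3 of the 24, falling less, against 14.3% of all tested genes. For Birc5 it was -0.61 (adjusted p = 0.0932) and for Mcm5 0.27 (adjusted p = 0.268), and a p that misses the threshold does not show that the changes were equal. Of 20 stress response genes, 5 rose and 7 fell without CK666, with a median of -0.11. The interaction was called above 0 in 6 of the 20 and below 0 in 2. Among single genes, the interaction was called for Slc7a11 (2.21) and Chac1 (1.2). For Trib3 (0.53, adjusted p = 0.253) and Atf3 (0.64, adjusted p = 0.19) it was not called, and whether these genes differ from each other was not tested.

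In several lists the interaction was called in many genes, mostly opposite in sign to the list median without CK666. Its sign does not give the size of a change. Tubb2a, for example, fell without CK666 and rose with it. Of 14 contractile genes, 10 fell and 1 rose without CK666, with a median of -1.23. The interaction was called above 0 in 10 and below 0 in 1. Of 16 SRF and MRTF targets, 15 fell without CK666, with a median of -0.71, and the interaction was above 0 in 12. For 24 cholesterol genes these figures were 23 lower, -0.90 and 15, and for 12 tubulins 9 lower, -0.62 and 9. Of 20 focal adhesion adaptors, 16 fell and 1 rose without CK666, and the interaction was above 0 in 13. All 6 adipokines rose without CK666, with a median of 3.19, and all 6 had an interaction called below 0. In the other fat cell lists it was called below 0 in 7 of 14 transcription factors (above 0 in 1), 6 of 12 genes of fatty acid uptake and 4 of 11 lipid droplet genes. Fatty acid and triglyceride synthesis genes (14 tested) had 3 above and 3 below 0, with medians of 0.15 with CK666 and 0.21 without it, and none of 3 brown and beige fat genes was called. Group means show where each change started. Acta2 averaged 3042 ± 69.2 CPM (SD, n = 3) in untreated cells, 498 ± 20.2 CPM with cytochalasin D, 700.5 ± 124 CPM with CK666 and 367 ± 46.6 CPM with both. Plin1 averaged 6.97 ± 0.791, 141 ± 2.71, 457 ± 126 and 645 ± 110 CPM in the same order.

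**Figure D4:**
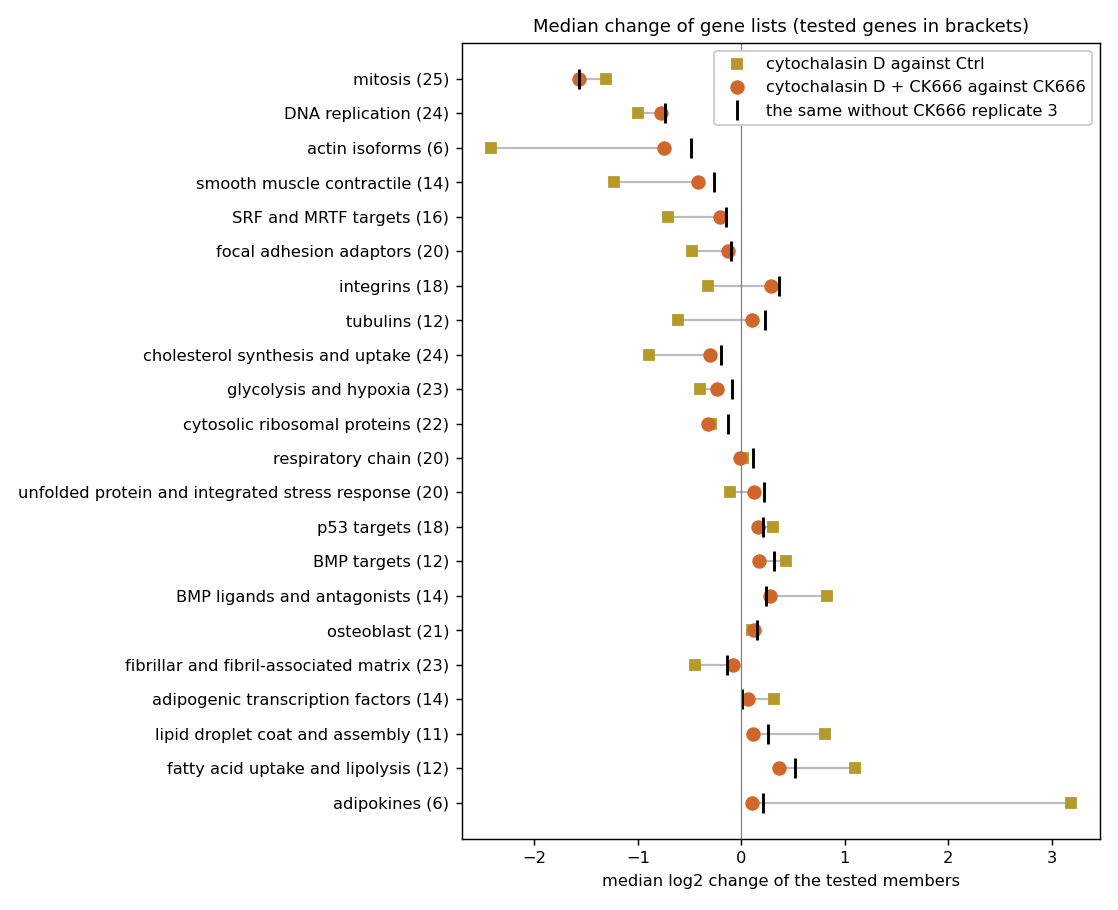
Median log2 fold change of gene lists with cytochalasin D in cells with CK666, with and without CK666 replicate 3, and in untreated cells. The mitosis medians are -1.57 with CK666 and -1.31 without it, while the contractile (-0.42 and -1.23), cholesterol (-0.30 and -0.90) and adipokine medians (0.10 and 3.19) are nearer to 0 in cells with CK666.

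In the table, the spans of Ccna2 and Exosc9, Cdc20 and Elovl1, Mxd3 and Prelid1, Cfd and Bc1, Tagln and Pcsk7, Ddit3 and Mars, Bmp4 and Gm15217, Timp2 and BC100451, Lipe and 4732471J01Rik, and Runx2 and Supt3h overlap. Whether counting used the strand is not given in the sources used here, so reads from overlapping genes may have been shared. Tubulin and ribosomal protein genes have near-identical copies, and their counts are uncertain for that reason.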

How the data were processed

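RNA from 12 libraries, 3 in each of 4 treatment groups, was sequenced. The authors deposited a gene table with counts per gene, per the file headers, and RPKM values made from them, which were not tested. The submitters' processing notes name hg19, a human build, as well as CASAVA 1.9, TopHat and HTSeq. Symbols are those of mouse, and coordinates match GRCm38: 20970 symbols were found in GENCODE M21, and 99.4% of their spans overlapped. Every deposited count was even. If each read of a pair was counted, counting error is larger than the counts imply.

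Genes passing filterByExpr (minimum count 10), 13534 of 23358, were scaled by TMM and fitted with a mean for each group by quasi-likelihood in edgeR 4.0.16 under R 4.3.3 (common biological coefficient of variation 0.115). Tests were 2-sided. The contrasts were both against CK666, cytochalasin D against untreated cells, and their difference, with Benjamini-Hochberg adjustment within each. SEs were taken as the absolute log2 fold change divided by the root of F. CPM carry no pseudocount. A count of 0 is compatible with up to 3 counts, by counting error alone. The script was tested on simulated data.

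There were 55 gene lists with 863 entries. The table holds 862 of these (7 by an older symbol), and 739 genes passed the filter. Members, lists and the rule for named genes were chosen with earlier results of these data known. The rule took the 12 most raised and 12 most lowered called genes with at least 1 CPM, groups that did not overlap and a call without CK666 replicate 3, up to 4 called members a list, a fixed set (such as Pparg, Plin1, Acta2, Ctgf, Mmp13, Mcm5 and Cyp51), and the 5 largest interactions each way. Part of these are printed, picked after their values were seen. The alternatives were RLE size factors, DESeq2 1.42.0, no filter, halved counts, the replicate number as a block, a correction for gene length, removal of Rn45s, a fit of the 2 groups alone and leaving out each library. Library replicates with the same number were not treated as pairs. RefSeq promoters matched 21 of 25 mitosis, 19 of 24 replication, 15 of 17 SRF and MRTF, and 20 of 20 stress response genes.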

Additional observations from a re-analysis of the deposited data

Results flagged for a closer look

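For the genes below, the change with cytochalasin D differed between cells with and without CK666 by the interaction test of edgeR, and each kept that call under every setting run. The interaction is the log2 fold change with CK666 minus that without it. Group means are CPM over n = 3 libraries, given for untreated cells, cytochalasin D, CK666 and both. No cause was tested for any of them.

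Fat cell genes had interactions below 0. Plin1 averaged 6.97, 141, 457 and 645 CPM (interaction -3.84), and Adipoq 16.2, 153, 603 and 836 CPM (-2.76). Cd36 averaged 0.492, 8.44, 56.9 and 83.1 CPM (-3.54), Lipe 2.78, 19.3, 145 and 216 CPM (-2.22), and Cfd 0.188, 4.54, 16.3 and 51.5 CPM (-2.93). In each of these the CK666 mean lay above that with cytochalasin D. For the transcription factors Pparg and Cebpa the values were -0.52 and -0.78.

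Several secreted and immune genes also had interactions below 0. Mmp13 averaged 8.52, 69.4, 4.21 and 13.6 CPM (-1.33), and the interferon-inducible GTPase gene Iigp1 0.533, 11.9, 6.02 and 14.8 CPM (-3.17). Serpine2, which rose in both settings, differed by -0.58. Cxcl12, the main chemokine of marrow stroma, averaged 8331, 18052, 5956 and 5746 CPM (-1.17), rising without CK666 (log2 1.12) and not called with it. C1ra, a protease of complement activation, rose without CK666 (log2 0.83) and fell with it (-0.45), an interaction of -1.28. Tgfbi, a matrix protein induced by TGF-beta, likewise rose without (log2 0.50) and fell with CK666 (-0.55), an interaction of -1.05. Bmp4 averaged 59.4, 65.7, 15.0 and 8.59 CPM (-0.95), not called without CK666 and lower with it.

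Cell cycle genes with an interaction were Cdkn1b, which rose without CK666 (log2 0.20) and fell with it (interaction -0.65), Cdkn2c (-0.52), Cenpm (-1.08) and Mxd3 (-1.01). The last pair fell in both settings.

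Interactions above 0 were found in genes of contraction, adhesion and the cytoskeleton, among others. Acta2 (1.68), Csrp1 (1.28) and Ctgf (1.72) fell in both settings, and less with CK666. Fhl1 averaged 35.2, 6.71, 7.16 and 5.89 CPM (2.11), and Itga11 91.5, 36.5, 11.4 and 10.3 CPM (1.18). Both fell without CK666 and were not called with it. Thbs1 fell without CK666 (log2 -0.74) and was not called with it (1.18). Flna averaged 3781, 2469, 1564 and 2054 CPM (1.01), falling without CK666 and rising with it. The formin gene Daam1 (0.83) and the tubulin gene Tubb2a (0.78) also fell without CK666 and rose with it, and Cyp51 (0.98) fell in both settings. Slc7a11 averaged 1.93, 1.80, 1.23 and 5.29 CPM (2.21) and Chac1 4.11, 5.22, 2.74 and 8.01 CPM (1.2). Neither was called without CK666 (log2 -0.10 and 0.35), and both rose with it.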

How the results depend on the processing

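With only the 2 groups fitted, 459 genes were called, 110 higher and 349 lower, and DESeq2 called 1025 higher, against 599 in edgeR. Leaving out 1 library gave 745 to 2563 calls, 242 to 1144 higher and 503 to 1419 lower, lowest without combination replicate 3 (778 without combination replicate 2) and highest without CK666 replicate 2. Calls of at least 2-fold stayed between 247 and 390. The interaction was called in 1094 to 3396 genes when 1 library was left out, the highest without CK666 replicate 3 and the lowest without CytoD replicate 2, and in 3003 with the length correction. RLE size factors, no filter, halved counts, the length correction and removal of Rn45s gave 1493 to 2118 calls. Libraries with the same replicate number were not treated as pairs, since the labels do not say that they share a source and 4 of 18 same-numbered pairs had correlated deviations over 0.1. They may still share a source: 8 of 12 libraries correlated best with their own number, a hint from the data and not the design. With the replicate block, 1726 genes were called here, 5212 without CK666 and 2078 in the interaction, Cd36 was called (adjusted p = 0.0209) and Lpl was not (adjusted p = 0.0546). Uncalled log2 fold changes near 0 changed sign: that of Cnn1 ranged from -0.2379 to 0.1306 (0.0436 without combination replicate 2), that of Cebpa from -0.035 to 0.1547 (-0.0065 without combination replicate 2) and that of Cxcl12 from -0.0964 to 0.054 when 1 library was left out. Why these values moved was not tested. The floor of 3 counts limits only genes well under 1 CPM.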

Other observations

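A few gene groups outside the comparisons above also held calls. Their counts are to be read against the 4.43% of all tested genes that rose and the 7.17% that fell. Cav2, caveolin 2 of the membrane pits called caveolae (chromosome 6, 17281341 to 17289011), was at 88.8, 137 and 109 CPM with CK666 and at 170, 195 and 217 CPM with both, 1.74-fold higher without overlap (adjusted p = 0.00172). Of 9 caveola genes tested, 1 rose and 1 fell (none fell without any 1 of the combination libraries). Of 18 genes of the TGF-beta axis, 4 fell and none rose (2 fell without combination replicate 3, and 2 rose without CK666 replicate 2). Tgfbi was at 137, 127 and 137 CPM and then at 77.9, 100 and 96.7 CPM, lower in every library with both compounds (log2 -0.55, SE 0.11, adjusted p = 0.0084).

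Among 18 genes that interferon induces, 1 was higher and 3 were lower by the test, with 1 lower without CK666 replicate 1 or combination replicates 2 or 3. Iigp1 (chromosome 18, 60376029 to 60392629) was the gene that rose, from 5.59, 7.0 and 5.48 CPM to 11.2, 16.1 and 17.1 CPM, 2.46-fold. Of 10 complement genes, 2 fell and none rose (1 fell without combination replicate 2 or 3, and 1 rose without CK666 replicate 1). C1ra was at 44.7, 38.1 and 47.7 CPM and then at 33.7, 31.5 and 30.5 CPM, 1.36-fold lower, a call lost when only the 2 groups were fitted. Of 18 integrin genes, 3 rose and none fell, while none rose without combination replicate 2 or 3, 1 rose and 1 fell without CK666 replicate 1, and 2 rose and 1 fell without CK666 replicate 3.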
